A study of Solanum lycopersicum with 4 samples.

Results

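SBP-box genes, also called SPL genes, encode plant transcription factors that share one DNA-binding domain. The 10 tomato (Solanum lycopersicum) IDs of that family described here were out of 33976 transcripts, 1 per gene ID. They were chosen by ID as the family members beyond 5 others of 15 SBP-box IDs in all. The rule used IDs alone, but earlier results of these data were known when the genes were chosen. Transcripts were measured by RNA sequencing of floral apices with closed flower buds. The 2 genotypes were 156OE, which is MT carrying an overexpressed microRNA, miR156, and MT itself without it. MT commonly stands for Micro-Tom, a dwarf tomato cultivar. There were 2 libraries of each genotype. Nothing in the labels says that the RNA replicates are of different plants, and p-values here measure only how far these libraries spread, which may be technical. The labels name neither the promoter that drives the microRNA nor the number of transgenic lines, and the level of miR156 itself was not analysed here.

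miR156 is a conserved plant microRNA that pairs with a site in many, but not all, SBP-box transcripts and lowers them by cleavage and reduced translation. Its level is high in young plants and declines with age, and the SBP-box factors released in this way promote adult leaf traits, flowering and, in tomato, normal inflorescence and ovary development. Large SBP-box members without the site form a separate class in Arabidopsis and are not held down by the microRNA there. Of the 10 genes, Solyc05g015510, Solyc05g012040 and Solyc12g038520 had been grouped with the miR156-type members, and Solyc01g068100 and Solyc05g053240 with the large members outside miR156 control. The other 5 were given no class. The gene table used here matched 0 of the 10 IDs, so no symbols are given, and no sequence was searched for a miR156 site.

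The libraries differed in depth, and this limits several of the genes. The 156OE libraries held 8440384 and 1685657 assigned reads, and the MT libraries 11203505 and 9369713. A count of 3 reads, taken as the limit that 0 reads allow, is 0.355 and 1.78 reads per 1000000 assigned (CPM) in the 156OE libraries and 0.268 and 0.320 CPM in MT. Chi-square per degree of freedom between the replicates was 19.9 in 156OE and 3.97 in MT, which is above sampling noise in both pairs. The 156OE libraries also stood apart from each other in tissue markers. Summed over the floral organ genes TAP3, TAG1 and TM5 the level was 153 and 39.7 CPM in 156OE replicates 1 and 2, against 78.8 and 89.1 CPM in MT, and the 3 markers were all lowest in 156OE replicate 2. The meristem markers WUS, TKN2 and CLV3 were present in all 4 libraries, at sums of 188 and 147 CPM in 156OE and 140 and 160 CPM in MT. Rubisco small subunit genes RBCS3 and RBCS1, photosynthesis markers, summed to 354 and 531 CPM in 156OE and 208 and 206 CPM in MT. The 2 genes did not move together, since RBCS3 had 233 and 472 CPM in 156OE and 136 and 131 CPM in MT, while RBCS1 had 120 and 59.3 CPM in 156OE and 71.5 and 74.2 CPM in MT. Of the pollen markers, LAT52 was at 0 in 3 of 4 libraries, and LAT56 was lower in 156OE, at 1.66 and 1.19 CPM, than in MT, at 6.16 and 4.59 CPM. The part of these differences in the results was not tested.

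Transcripts of the 3 miR156-type genes were at lower levels in both 156OE libraries than in both MT libraries, at 27.7% (Solyc05g015510), 45.5% (Solyc12g038520) and 47.1% (Solyc05g012040) of the mean MT level. Among the genes without a class, Solyc07g062980 had the lowest share, at 9.86% of the MT level. In contrast, the 2 large genes outside miR156 control averaged 84.9% (Solyc01g068100) and 77.2% (Solyc05g053240) of MT, and 1 gene, Solyc01g090730, was at 119%. These shares are of TPM, a level per transcript length that sums to 1000000 in each library. The median tested gene itself stood at 95.2% of its MT mean in 156OE replicate 1 and at 80.6% in replicate 2 on that scale, so shares near these values are those of a typical gene.

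**Figure D1:**
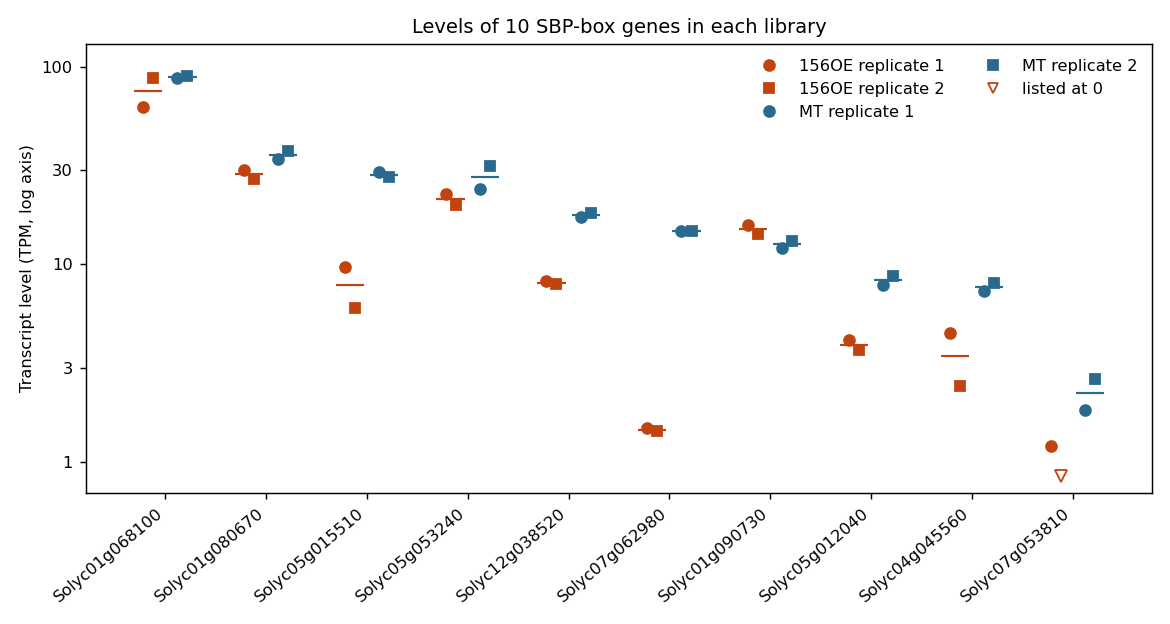
TPM of the 10 SBP-box genes in each library on a log axis, with 156OE left of MT for each gene, circles for replicate 1, squares for replicate 2 and short lines for the means of 2 libraries. Genes run from the highest MT mean (Solyc01g068100, 88.1 TPM) to the lowest (Solyc07g053810, 2.23 TPM), and the open triangle marks the library in which Solyc07g053810 is listed at 0 (its 156OE mean line is left out).

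None of the genes passed edgeR's quasi-likelihood test when p-values were adjusted over all 18385 genes tested. Of the 10 genes, 9 passed the low-count filter and 0 were called lower, where the test called 0% of all genes lower and 0.00544% (1 gene) higher. With no adjustment, 5 of the 9 had a p under 0.05 and a lower level in 156OE, against 5.11% of all genes tested, and 0 a p under 0.05 and a higher level, against 6.28%. DESeq2 called 1 of the 10 lower, Solyc05g015510, against 0.312% of the genes it adjusted, and 0 higher, against 0.719%. The log2 change was below 0 in 8 of the 9, against 48.5% of all genes tested, and at -1 or less in 2, against 1.87%. In 7 of the 9 the CPM values of 156OE were both under those of MT, against 29.7% of all genes tested, and in 1 they were both above, against 16.2%. The median log2 change of the 9 was -0.88, beside 0.01 over all genes tested. The filter kept Solyc07g062980 on its MT counts, so counts and medians over the 9 are descriptions.

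**Figure D2:**
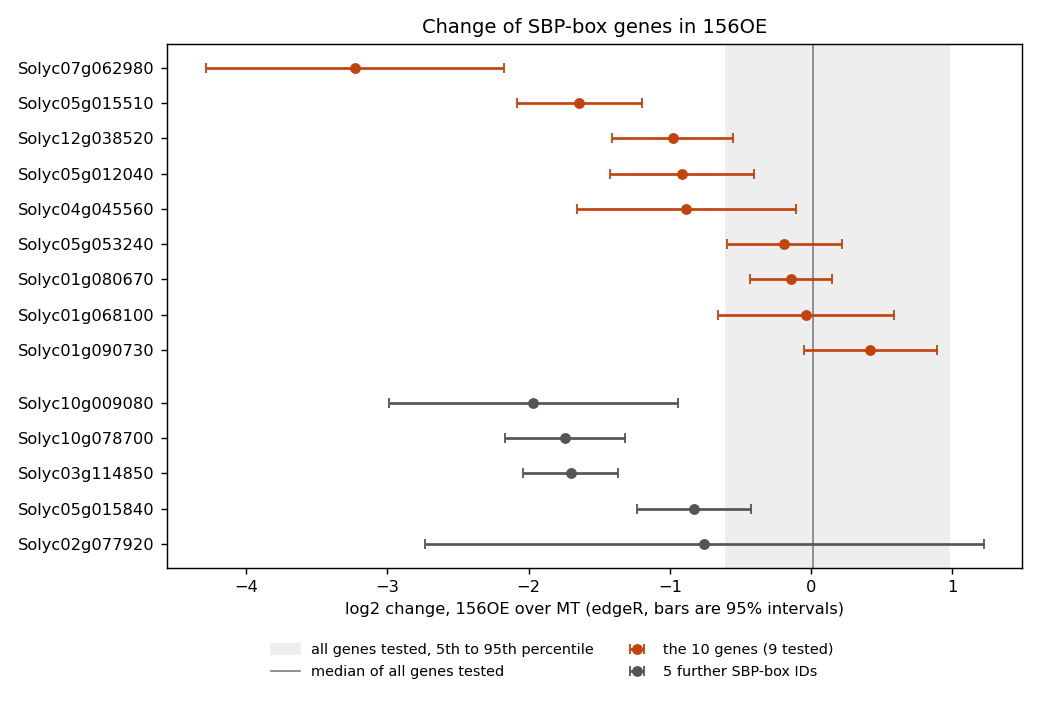
Log2 change of 156OE over MT from edgeR with 95% intervals, for the 9 tested genes (orange) and the 5 further SBP-box IDs (grey), with the range from the 5th to the 95th percentile of all genes tested shaded. The 5 lowest of the 9 genes have intervals below 0, and the other 4 have intervals that include it.

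Solyc05g015510, a miR156-type member on chromosome 5, as its ID numbers it, with a transcript of 3526 nt, was lower in both 156OE libraries. It had 9.68 and 6.03 TPM in the 156OE libraries, against 29.1 and 27.6 TPM in the MT libraries. The groups did not overlap, and 156OE replicate 2 was the lowest library, with 34 reads where the MT level would have given 148. The log2 change was -1.64 ± 0.17 (SE, n = 2 per genotype), with a 95% interval from -2.08 to -1.19 (edgeR adjusted p = 0.205 over all genes). DESeq2 gave the same log2 change, -1.64, and an adjusted p of 2.29e-07. Against the MT pair, 156OE replicate 1 alone gave a log2 change of -1.48 (edgeR adjusted p = 5.69e-05) and replicate 2 alone -1.94 (edgeR adjusted p = 8.88e-05). In these fits with 1 library of 156OE, its spread is assumed to be like that of the MT pair, and edgeR called 2.28% of all genes lower and 3.45% higher with replicate 1, and 2.48% lower and 8.16% higher with replicate 2. With replicate 1 alone, the genes called lower included Solyc01g068100 (log2 change -0.43), a large member outside miR156 control, but not Solyc04g045560. With replicate 2 alone they included Solyc07g062980, which had 1 read there. Neither fit called any of the 10 genes higher. Only 0.549% of all genes tested had a log2 change as low as the fitted -1.64 of Solyc05g015510 or lower.

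Solyc12g038520, the miR156-type member on chromosome 12 (1743 nt), had nearly the same level in both 156OE libraries. The values were 8.20 and 7.96 TPM in 156OE and 17.4 and 18.1 TPM in MT. The groups did not overlap, and the gap between them was far wider than either pair's spread. Its log2 change was -0.98 ± 0.17 (SE), with an interval from -1.41 to -0.55 (edgeR adjusted p = 0.262, unadjusted p = 0.00188), and DESeq2 did not call it (adjusted p = 0.184). The log2 change was -1.05 with 156OE replicate 1 alone and -0.87 with replicate 2 alone, where 21 reads stood behind the value.

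Solyc05g012040, the second miR156-type member on chromosome 5 (2272 nt), behaved much like it. It had 4.13 and 3.68 TPM in 156OE, against 7.85 and 8.72 TPM in MT, with no overlap. The log2 change was -0.91 ± 0.20 (SE), with an interval from -1.42 to -0.40 (edgeR adjusted p = 0.300, unadjusted p = 0.00569; DESeq2 adjusted p = 0.546). The change was -0.93 with 156OE replicate 1 alone and -0.88 with replicate 2 alone, which held 13 reads. Among the 15 SBP-box IDs these 2 genes were each other's nearest in pattern, at a Euclidean distance of 0.146 over the 4 libraries between log2(CPM + 1) values centred on the MT mean. Their intervals do not reach the size of change seen for Solyc07g062980, whereas that of Solyc05g015510 overlaps both of theirs, and no difference between members was tested.

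Of the genes without a class, Solyc07g062980 on chromosome 7 had the lowest share of its MT level. Its short transcript model (584 nt) carried 5 and 1 reads in the 156OE libraries and 65 and 53 reads in the MT libraries. In TPM these were 1.48 and 1.43 in 156OE and 14.8 and 14.8 in MT. Both 156OE values were thus far under both MT values, although the single read in replicate 2 is below the limit of 3. Against the summed MT reads, 156OE replicate 1 stood at 10.3% in CPM, with an exact binomial 95% interval from 3.29% to 24.8%. Replicate 2 stood at 10.3% as well, but with an interval from 0.260% to 58.8%. Such intervals cover counting error only. The fitted log2 change was -3.23 ± 0.41 (SE; edgeR adjusted p = 0.210, unadjusted p = 0.000491), and DESeq2 gave an adjusted p of 0.0650. With 156OE replicate 1 alone the log2 change was -3.27, and with replicate 2 alone it was -3.09. Of all genes tested, 0.125% had a log2 change as low as the fitted -3.23 or lower.

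Solyc04g045560 on chromosome 4 (1402 nt) had a lower level with a wide error. It had 4.47 and 2.41 TPM in 156OE and 7.30 and 7.999 TPM in MT, from 45 and 5 reads in the 156OE libraries. The groups did not overlap, but the 156OE libraries differed from each other by more than the MT libraries did. The log2 change was -0.88 ± 0.30 (SE), with an interval from -1.66 to -0.11 (edgeR adjusted p = 0.403, unadjusted p = 0.0325; DESeq2 adjusted p = 0.915). In the fits with 1 library of 156OE, its log2 change was -0.70 with replicate 1 and -1.37 with replicate 2. The SBP-box ID nearest to it in pattern was Solyc05g015840, at a distance of 0.108.

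**Figure D3:**
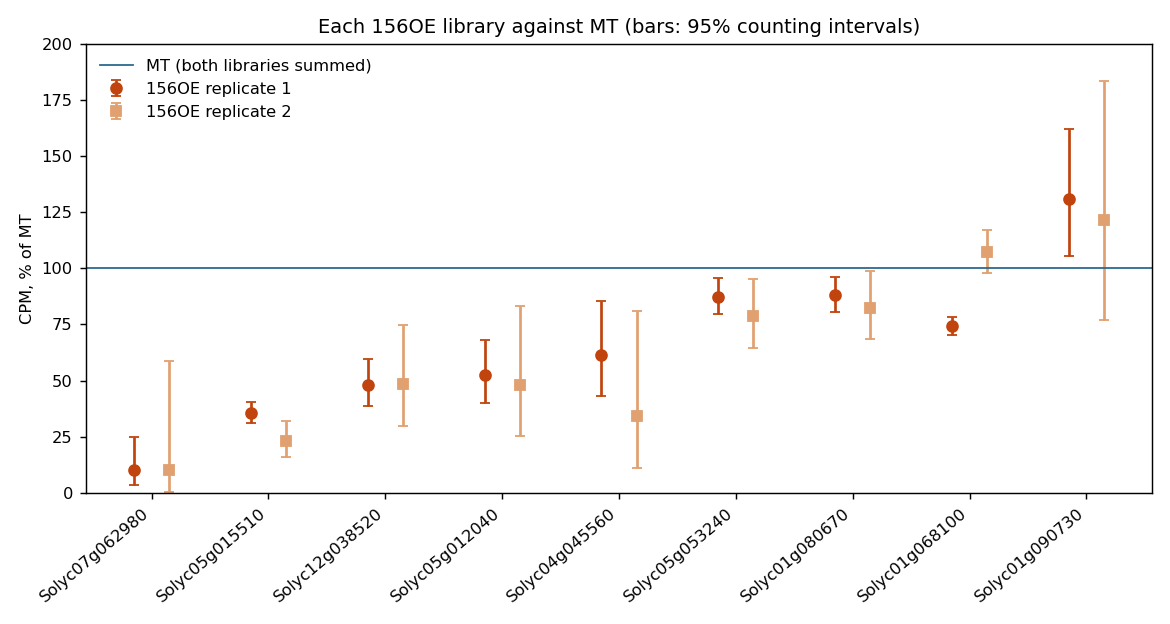
CPM in each 156OE library as a percentage of the summed MT libraries, for the 9 tested genes, with exact binomial 95% intervals that cover counting error only. The intervals of 156OE replicate 2 are the wider ones in all 9 genes, and the values of both libraries are at most 61.3% of MT in the 5 genes on the left.

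The large members outside miR156 control stood nearer to their MT levels. Solyc01g068100 on chromosome 1 (3774 nt) was the most abundant of the 10 genes in all 4 libraries, with 62.2 and 87.5 TPM in 156OE and 87.1 and 89.1 TPM in MT. On that scale the first 156OE library was below both MT libraries and the second lay between them, while in CPM the second, at 314, was above both MT libraries, at 291 and 295. Its log2 change was -0.04 ± 0.24 (SE), with an interval from -0.66 to 0.59 (edgeR adjusted p = 0.986). With 156OE replicate 1 alone the log2 change was -0.43, and with replicate 2 alone the sign turned to 0.28. Between these 2 libraries the floral organ markers also differed, in the other direction, at the sums given above. Solyc05g015510 (31.5 and 20.2 CPM) and Solyc04g045560 (5.33 and 2.97 CPM) were lower in 156OE replicate 2, as the markers were. Drops that were smaller relative to the level were seen in Solyc05g053240, Solyc01g080670, Solyc05g012040 and Solyc01g090730. Solyc12g038520 and Solyc07g062980 were nearly level in CPM. Of the flowering genes given below, FA, S and MBP20 were lower in 156OE replicate 2 and FUL1 was higher. The part of the markers in any of these results was not tested.

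Solyc05g053240 on chromosome 5 (3569 nt), the other large member of this kind, had 22.7 and 19.95 TPM in 156OE and 24.0 and 31.3 TPM in MT. In TPM, 156OE replicate 1 was just under the lower MT library and replicate 2 was further under it. The MT pair was the more spread of the genotypes. In CPM with the library scaling that edgeR applies, the groups of Solyc05g053240 overlapped. Its log2 change was -0.19 ± 0.16 (SE), with an interval from -0.60 to 0.22 (edgeR adjusted p = 0.658), and was 0.01 without MT replicate 2. For both genes the interval lies above a log2 change of -1, and above the point estimate of Solyc12g038520 and of Solyc05g012040. In both it overlaps the intervals of those miR156-type genes, however, and no difference between members was tested. Of the 10 genes, 6 had deposited reads that were not whole numbers, so Salmon had shared some of their reads with similar transcripts. This held in all 4 libraries for Solyc01g068100 and Solyc05g053240, and in 3 for Solyc01g080670. It held in 2 libraries each for Solyc05g015510 and Solyc12g038520, and in 1 for Solyc01g090730.

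Solyc01g080670 on chromosome 1, a long transcript (2954 nt) with no class, was close to these. It had 29.8 and 27.1 TPM in 156OE, against 33.9 and 37.3 TPM in MT. The groups did not overlap, but the values were near the share of the median gene. EdgeR gave a log2 change of -0.14 ± 0.11 (SE), with an interval from -0.43 to 0.15 (edgeR adjusted p = 0.647). It and Solyc05g053240 were nearest to each other in pattern, at a distance of 0.187.

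Of the 10 genes, 4 had transcripts of 2500 nt or more, and length did not separate the lower genes from the others. Log2 changes of the long genes ran from -1.64 (Solyc05g015510) to -0.04, with a median of -0.17, and those of the 5 shorter genes tested from -3.23 to 0.42, with a median of -0.91.

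Solyc01g090730 on chromosome 1 (1215 nt) was the only one of the 10 with a higher value in both 156OE libraries. It had 15.8 and 14.2 TPM in 156OE and 12.1 and 13.2 TPM in MT, and the nearest libraries of the groups were about as far apart as the replicates of one group. The log2 change was 0.42 ± 0.18 (SE), with an interval from -0.05 to 0.89 (edgeR adjusted p = 0.464, unadjusted p = 0.0693), and 85.8% of all genes tested had a log2 change at or below it. Solyc07g053810 on chromosome 7 (476 nt) was not tested, since its reads were too few, at 3 and 0 in 156OE and 6 and 7 in MT. At 156OE replicate 2's depth its MT level would have given 1.08 reads, so a difference was not detectable there.

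In the order of levels per length, 3 genes were 3 places apart between the genotypes. From the highest down, Solyc05g015510 had rank 6 of the 10 in 156OE and rank 3 in MT, and Solyc07g062980 had rank 9 in 156OE and rank 6 in MT. Solyc01g090730 had rank 4 in 156OE and rank 7 in MT. Of neighbours in the MT order, only Solyc05g015510 and Solyc05g053240 differed by less than the larger SD of the pair, by 0.732 TPM where that SD was 5.22. In 156OE this held for Solyc12g038520 and Solyc05g015510 (0.223 TPM, SD 2.58) and for Solyc05g012040 and Solyc04g045560 (0.463 TPM, SD 1.45). The 3 miR156-type genes made up 13.8% and 10.4% of the summed TPM of the 10 genes in the 156OE libraries, against 23.1% and 21.7% in MT. The 2 large members made up 53.2% and 63.1% in 156OE and 47.2% and 48.0% in MT. The sum itself was 160 and 170 TPM in 156OE and 235 and 251 TPM in MT.

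A ratio of genes within a library does not depend on how libraries are scaled to each other. Relative to Solyc01g068100, Solyc05g015510 stood at 15.6% and 6.89% in the 156OE libraries and at 33.4% and 31.0% in MT. Solyc12g038520 stood at 13.2% and 9.10% in 156OE and 19.9% and 20.4% in MT, and Solyc05g012040 at 6.64% and 4.21%, against 9.01% and 9.79%. For Solyc07g062980 the ratio was 2.39% and 1.64% in 156OE and 16.9% and 16.6% in MT. In each of these 4 genes both 156OE ratios were below both MT ratios. How many of all genes have such ratios is not given here, so how unusual this is stays unknown. For Solyc05g053240 the ratios overlapped, at 36.6% and 22.8% in 156OE and 27.5% and 35.2% in MT. The gene in the denominator itself differed between the 156OE libraries, and such a ratio shows unequal change, not which of the 2 genes changed.

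**Figure D4:**
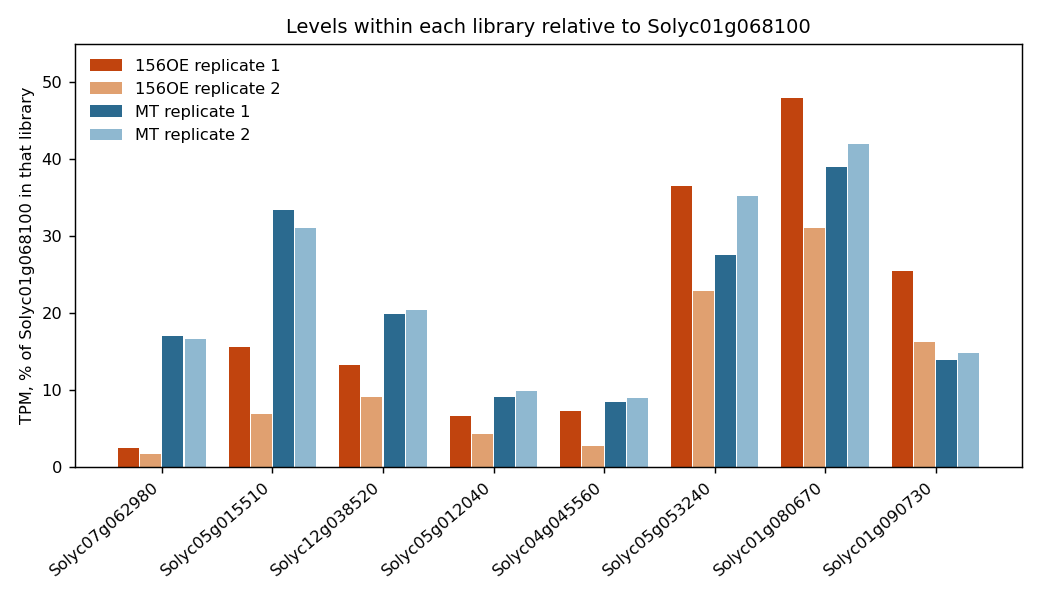
TPM of 8 SBP-box genes as a percentage of the TPM of Solyc01g068100 in the same library, bars from 0, with the 2 libraries of 156OE left of those of MT for each gene. The 5 genes on the left have both 156OE bars below both MT bars, Solyc05g053240 and Solyc01g080670 have overlapping ones, and Solyc01g090730 has both 156OE bars above.

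The 5 further SBP-box IDs had log2 changes from -1.97 to -0.76 and a median of -1.70. The -0.76 belongs to Solyc02g077920, which had no read in 156OE replicate 2 and 4.74 CPM in replicate 1, against 4.73 and 6.62 CPM in MT, so that its groups overlap and its fitted change is not firm. In the other 4, both 156OE values were under both MT values in CPM, against 29.7% of all genes tested. The same held for the miR156-type genes, but also for Solyc05g053240 and Solyc01g080670. With the library scaling that edgeR applies, however, the groups of Solyc05g053240 overlap. In edgeR 0 of these 5 passed over all genes. An unadjusted p under 0.05 with a lower level was found in 4, against 5.11% of all genes tested, and DESeq2 called 4 lower, against 0.312%. Solyc10g078700 of this list was the nearest in pattern to Solyc05g015510, at a distance of 0.180. It had 23.2 and 15.04 TPM in 156OE, against 71.2 and 77.2 TPM in MT.

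Flowering genes known or proposed to act downstream of or beside SPL factors were examined beside them. Of 12 IDs with a checked name, 11 were tested, 0 passed edgeR over all genes in either direction, and their log2 changes ran from -0.92 to 0.47 with a median of -0.16. The lowest p belonged to FA, the tomato LEAFY gene, which had 66.5 and 41.2 CPM in 156OE and 118 and 102 CPM in MT (log2 change -0.92 ± 0.20, SE; edgeR adjusted p = 0.295; DESeq2 adjusted p = 0.0326). MBP20, one of the FRUITFULL clade of MADS-box genes, stood at 22.2 and 18.98 CPM in 156OE, against 33.4 and 34.8 CPM in MT (edgeR adjusted p = 0.300). FUL1, of the same clade, had 74.5 and 77.4 CPM in 156OE and 64.8 and 61.9 CPM in MT (edgeR adjusted p = 0.423). S, the COMPOUND INFLORESCENCE homeobox gene, had 18.4 and 11.9 CPM in 156OE and 21.4 and 21.4 CPM in MT (edgeR adjusted p = 0.527). In bulk samples of apices and buds, fewer cells of a type and less RNA per cell cannot be told apart for any of these genes.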

How the data were processed

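RNA from floral apices and closed buds of 2 156OE and 2 MT replicates was sequenced. The authors' steps, per the submitters' processing notes, involved Trimmomatic, HISAT2, Picard, SAMtools and Salmon; no versions, genome build or annotation are stated there. The authors deposited Salmon tables per transcript, with estimated counts (not normalized, often not whole) and TPM values (per effective length, summing to 1000000 per library), per the file headers.

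Estimated counts were rounded and compared between genotypes by edgeR 4.0.16 (two-sided quasi-likelihood test, filterByExpr, TMM, genotype only, Benjamini-Hochberg over 18385 genes, threshold 0.05) in R 4.3.3. Standard errors and 95% intervals are those implied by each p and its moderated degrees of freedom. CPM is per 1000000 assigned reads, without TMM. The procedure was tested on simulated data. Alternatives were DESeq2 1.42.0, limma 3.58.1 on log2 TPM, other scalings and filters, an effective-length offset, a replicate block and leaving out each library.

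Exact permutation of 2 libraries against 2 allows no p under 0.333 and was not run. All 10 genes are named; of the flowering list, the 4 with the lowest p. The genes and lists were chosen with earlier results of these data known. Symbols were recalled from tomato nomenclature and used where RefSeq (SLM_r2.1) places them on the same chromosome within 0.03 of the same relative place. One flowering ID, also a planned floral organ marker, and 1 photosynthesis ID failed this check and were left out.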

Additional observations from a re-analysis of the deposited data

How the results depend on the processing

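The number of the 10 genes called lower depended on the setting. It was 0 with all 4 libraries in edgeR, 2 with no low-count filter (Solyc05g015510, adjusted p = 0.0161; Solyc07g062980, adjusted p = 0.049), 1 with DESeq2, and between 0 and 5 when 1 library was left out. The 5 came without 156OE replicate 2, and without either MT library it was 0, the spread then being that of the 156OE pair. It was 0 with the other scalings, limma, the length offset and both blocks. None of the 10 was called higher in any setting. Over all genes, 0 were lower and 1 higher; the counts were 28 and 57 with no filter, 63 and 145 with DESeq2, and 0 to 466 and 0 to 1532 when 1 library was left out. The higher gene was lost with limma (0 at either pseudocount, 1 or 0.1) and with the replicate block (0). Deviations of same-numbered libraries correlated at -0.27, so the crossed pairing, added after seeing the data, was fitted and called 0 and 0. The numbers are not known to mark shared plants or days. Log2 changes kept their sign except in Solyc01g068100 (0.28 without 156OE replicate 1, -0.43 without 156OE replicate 2) and Solyc05g053240 (-0.37 without MT replicate 1, 0.01 without MT replicate 2); the cause was not tested. On log2(TPM + 1) the median of all genes was -0.17, against 0.01 in edgeR, and relative to it no tested gene of the 10 changed sign. Both 156OE libraries were under both MT libraries in 8 of the 10 genes in CPM and in TPM, and in 7 in CPM scaled by TMM. The gene lost with TMM was Solyc05g053240. In unscaled CPM the same held for 29.7% of all genes tested. The shares of all genes in TPM and in scaled CPM are not given here, so how unusual those counts are stays unknown. The depth of 156OE replicate 2 limits the genes with few reads.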
